A study of Rattus norvegicus with 12 samples.

Results

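The genes described here are the 10 core loop genes of the circadian clock other than its output and REV-ERB genes: the activators Arntl, Clock and Npas2, the repressors Per1, Per2, Per3, Cry1 and Cry2, and the nuclear receptors Rora and Rorb. They were taken by symbol from an RNA table of 26949 genes, and all 10 were present and passed the filter on low counts. The RNA was hippocampal, from male rats that had spent 4 weeks in chronic intermittent hypoxia (CIH), a model of sleep apnoea in which oxygen falls and recovers over and over, or 4 weeks in normoxia (control), with 3 libraries in each group. The labels do not give strain, age, the oxygen cycle, the hour at which tissue was taken or whether each library is a separate animal. P-values therefore measure spread among libraries, which may be technical. Library totals ran from 17170943 to 21941173 estimated counts, and the members had between 296 and 3223 estimated counts per library.

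The clock is a feedback loop of transcription. ARNTL (also called BMAL1) pairs with CLOCK or with its relative NPAS2, and the pair binds E-boxes, short DNA motifs, to turn on the Per and Cry genes; PER and CRY proteins then enter the nucleus and repress that pair, so that the cycle takes about a day. ROR receptors activate Arntl through another motif, the RORE, where REV-ERB receptors repress it. In rodent hippocampus the loop runs in neurons and glia, and Per1 and Per2 also respond within the hour to neuronal activity and to glucocorticoids.

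Promoter windows from RefSeq on the GRCr8 assembly, 250 bases before to 50 bases after each annotated start, were matched for 9 of the 10 genes by gene ID; Cry1 had no entry. The windows below are shown because they hold matches to motifs by which clock factors are known to act, with the matched letters in capitals and each sequence written 5′ to 3′ on the strand of the gene. In Arntl (RefSeq symbol Bmal1, chr1:176766267-176766326, plus strand), the capitals mark 2 matches to AGTAGGTNA, a long form of the RORE, which begin at -54 and -18 with the annotated start counted as 0. In Per2 (minus strand), the capitals mark a D-box match within the window chr9:99497159-99497204 and an E′-box match within the window chr9:99497029-99497074. In Cry2 (chr3:98860623-98860668, minus strand), they mark an E′-box read on the opposite strand.
Arntl, long RORE: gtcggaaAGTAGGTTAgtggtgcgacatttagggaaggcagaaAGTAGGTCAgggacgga
Per2, D-box: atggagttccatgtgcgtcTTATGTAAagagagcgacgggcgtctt
Per2, E′-box: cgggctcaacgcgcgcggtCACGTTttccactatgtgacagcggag
Cry2, E′-box: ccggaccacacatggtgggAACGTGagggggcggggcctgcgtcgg

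Both strands were searched for 6 motifs. The long RORE was found in 1 of the 9 genes, against 0.604% of all 33469 promoter windows, and the copy nearer the start of Arntl contains the shorter RORE core TAGGTCA, which 2.63% of windows hold. The E′-box CACGTT was found in 2 of the 9 genes, against 4.83% of windows, and the D-box TTANGTAA in 1, against 2.24%. The E-box CACGTG (6.42% of windows) and the cyclic AMP response element TGACGTCA (1.83%) were found in none of the 9. A match describes letters in these windows and is not a measured site.

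The comparison asked whether the core loop genes differ in level between CIH and control hippocampus. None of the 10 passed the edgeR quasi-likelihood test over all genes (Benjamini-Hochberg adjusted p = 1.00 for each), where 0 of 17935 genes (0%) passed. None of the 10 had an unadjusted p under 0.05, against 319 genes (1.78%) over the whole table, and DESeq2 also called none of the 10 and found none with an unadjusted p under 0.05. The log2 fold change, CIH over control, was above 0 for 8 members and below 0 for Arntl and Cry2, with a median of 0.13, beside 50.6% of all genes above 0 and a median of 0.00. In CPM, read counts scaled to a common library total with TMM factors, the groups overlapped in all 10 members, where 5.7% of all genes did not overlap.

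A single library carried much of the lean towards CIH. CIH replicate 1 held the highest CPM of 7 of the 10 members: Npas2, the 3 Per genes, Cry1, Rora and Rorb. Without it, 5 members were above 0 and 5 below, and their median was 0.01. The same library was lowest of the 6 for all 7 tested dentate granule cell genes and highest for all 11 endothelial and pericyte genes. Its part in the results of the clock genes was measured only by leaving it out.

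**Figure D1:**
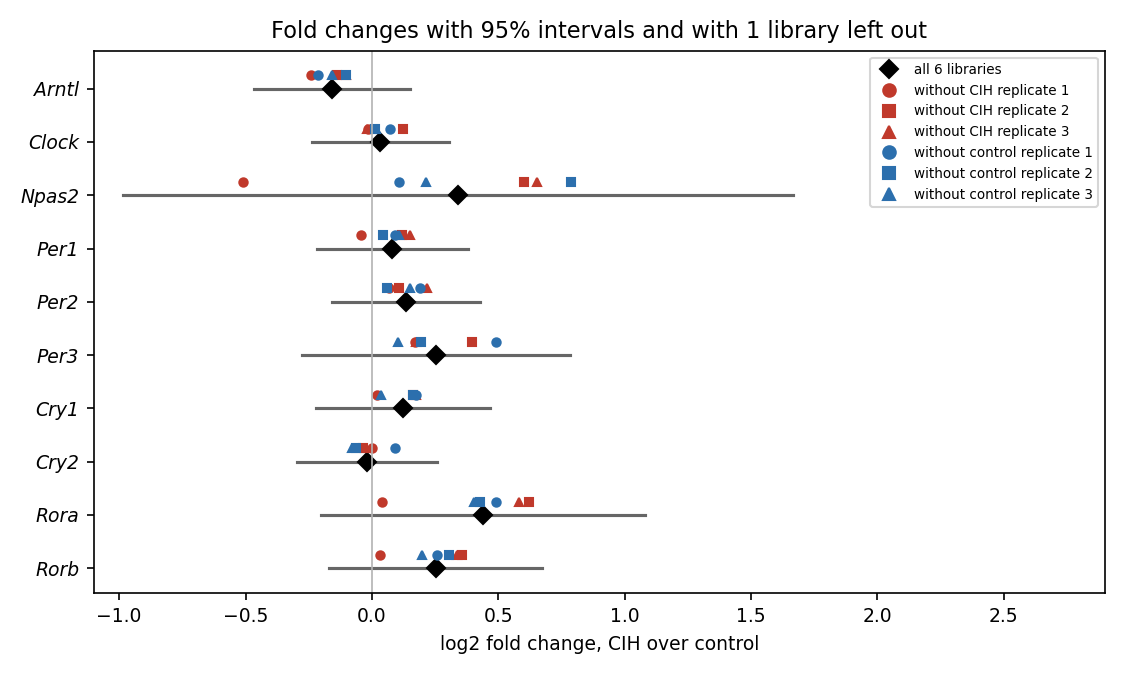
Log2 fold change, CIH over control (horizontal axis), of each gene with all 6 libraries (diamonds, with 95% intervals as lines) and with each library left out (small markers above each line). Every interval spans 0, and leaving out CIH replicate 1 moves Npas2 to -0.51, Rora to 0.04 and Rorb to 0.03.

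Levels between genes were compared in TPM, the authors' per-length unit. Over the 6 libraries Cry2 was the most abundant at 75.8 ± 7.54 TPM (SD, n = 6), followed by Per1 at 55.1 ± 5.24, Rora at 52.2 ± 11.4, Rorb at 47.3 ± 10.9, Npas2 at 46.8 ± 30.4, Per3 at 41.0 ± 9.45, Per2 at 31.3 ± 3.17, Clock at 25.7 ± 2.08, Cry1 at 14.5 ± 2.38 and Arntl at 12.6 ± 1.25 TPM. Cry2 was above Per1 in all 6 libraries with no overlap of their ranges, and Clock stood above Cry1 in the same way. Rora exceeded Rorb, and Per2 exceeded Clock, in each of the 6 libraries, although their ranges overlapped. Other neighbours in the order were less clearly separated: Per1 exceeded Rora in 3 libraries, Rorb exceeded Npas2 in 4 and Npas2 exceeded Per3 in 3. Per3 exceeded Per2, and Cry1 exceeded Arntl, in 5 of 6.

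**Figure D2:**
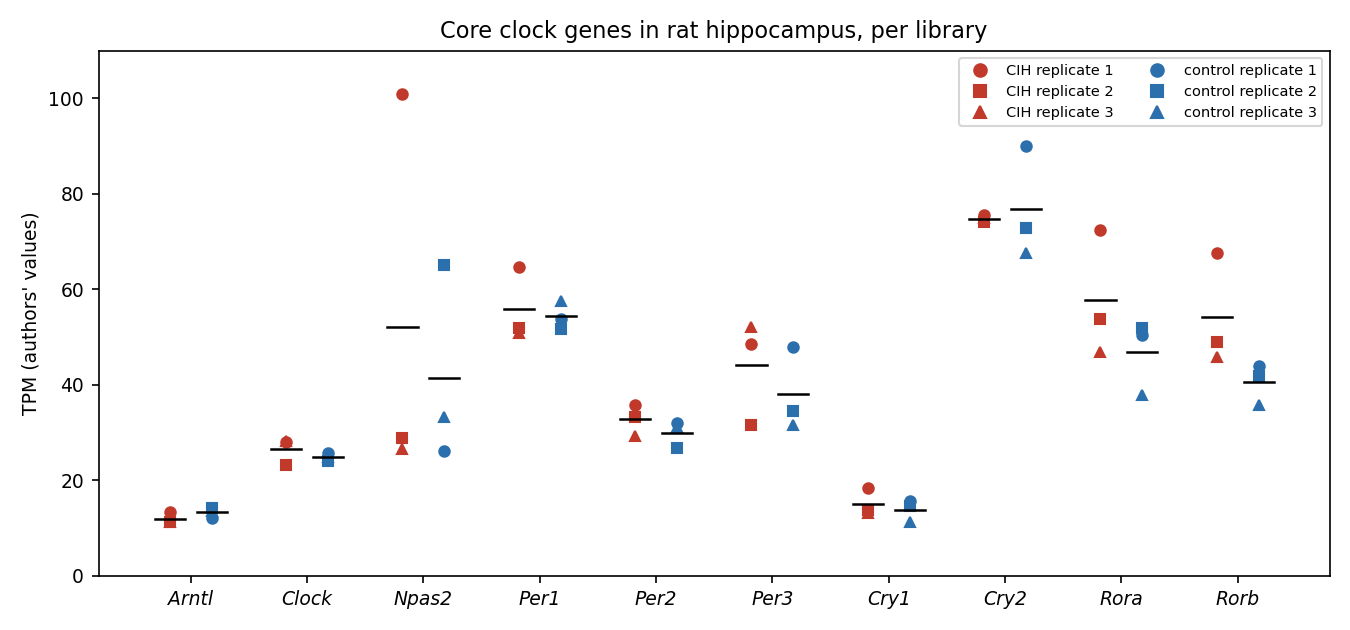
TPM of each gene (vertical axis) in each library, with CIH libraries in red left of the control libraries in blue, and black bars at the group means. Npas2 spreads from 26.2 to 101 TPM, while Arntl stays between 11.2 and 14.2 TPM, and Rorb shows no overlap between the groups in this unit.

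Arntl, which encodes the partner shared by CLOCK and NPAS2, stood at 18.8, 16.5 and 15.6 CPM in CIH replicates 1, 2 and 3, against 17.4, 20.5 and 18.9 CPM in control replicates 1, 2 and 3. The lowest values were those of CIH replicates 2 and 3, and CIH replicate 1 lay among the controls. Its log2 fold change was -0.16 (SE 0.13), with a 95% interval of -0.47 to 0.15 (adjusted p = 1.00, edgeR), and it ran from -0.24 to -0.10 over all 15 alternatives.

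Clock, the activator with histone acetyltransferase activity, was nearly level across the libraries, at 117, 95.4 and 117 CPM in CIH and 112, 105 and 104 CPM in control. The groups overlapped, with the lowest and the highest library both in CIH. For Clock the log2 fold change was 0.03 (SE 0.11), with a 95% interval of -0.24 to 0.31.

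Npas2, the CLOCK relative that is prominent in forebrain, varied more than any other member. It stood at 181, 57.1 and 49.1 CPM in CIH replicates 1, 2 and 3, against 48.8, 116 and 61.7 CPM in control replicates 1, 2 and 3. One library in each group stood far above the rest, CIH replicate 1 and control replicate 2. The highest value was 3.70 times the lowest, and the SD of its log2 CPM, 0.77, exceeded that of 98.7% of 1905 genes of similar mean. CIH over control, its log2 fold change was 0.34 (SE 0.56), with a 95% interval of -0.99 to 1.67, and it turned to -0.51 without CIH replicate 1.

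Because NPAS2 and CLOCK take the same place beside ARNTL, their transcripts were also set against each other. Npas2 made up 78.3%, 55.5% and 48.4% of the summed Clock and Npas2 TPM in CIH replicates 1, 2 and 3, against 50.4%, 73.0% and 57.2% in control replicates 1, 2 and 3. The share was above that of every other library in CIH replicate 1 and control replicate 2, the libraries with high Npas2, and the groups overlapped.

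Npas2 tracked the scores of the striatum and cortical layer marker lists, which stand for neighbouring forebrain tissue, but only some of their single genes. The score of a marker list is the mean log2 CPM of its genes minus their mean over the 6 libraries. The striatum score was 0.71, -0.35 and -0.41 in CIH replicates 1, 2 and 3, against -0.24, 0.45 and -0.16 in control replicates 1, 2 and 3. The cortical layer score was 0.66, -0.09 and -0.32 in the CIH libraries, against -0.34, 0.15 and -0.06 in the control libraries. Both scores were highest in CIH replicate 1 and next highest in control replicate 2, as was Npas2.

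Over the 6 libraries the log2 CPM of Npas2 had a Pearson r of 0.98 with the striatum score (Spearman rho 0.83) and of 0.97 with the cortical layer score (rho 1.00). Without CIH replicate 1 these were 0.96 and 0.92. Without the 2 libraries farthest from the median score they were 0.50 and 0.91, so the striatum relation rests in large part on those libraries. Of 160 pairs of a member and a list, 6 had an r beyond 0.9 in size. The pairs of Npas2 with the striatum and cortical layer scores were the 2 that stayed beyond it without CIH replicate 1. Another 2 of the 6 were also pairs of Npas2, with the glucocorticoid response list (r = -0.94, and -0.89 without CIH replicate 1) and with the CA2 and CA3 pyramidal cell list (r = -0.93, and -0.78 without it). Without the 2 libraries farthest from the median score these were -0.17 and 0.32, so both rest on those libraries. Arntl also ran with the striatum score (r = 0.77, rho 0.83). Its r was 0.90 without CIH replicate 1 and 0.98 without the 2 farthest libraries. Clock lay opposite to the microglia score (r = -0.83, rho -0.71). For Clock the r was -0.93 without CIH replicate 1 but -0.11 without the 2 farthest libraries, so it rests on them. The pairs described were picked after their values were seen, the points share a library and its depth, and no test was made of them.

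Single markers showed the same libraries high, though not all of them. Cux2, an upper cortical layer transcription factor, stood at 203, 47.9 and 36.0 CPM in CIH and 43.8, 102 and 49.3 CPM in control (r = 0.99 with Npas2). The striatal dopamine receptor gene Drd1 stood at 17.04, 3.98 and 5.11 CPM in CIH and 5.37, 10.9 and 5.79 CPM in control (r = 0.96 with Npas2). In all, 4 of 8 striatum genes and 4 of 9 cortical layer genes had an r above 0.8 with Npas2. Against these, the abundant striatal gene Ppp1r1b (r = -0.08) did not run with it, and Pde10a (r = -0.83) leaned the other way. Both are also expressed in hippocampus. Among the cortical genes Fezf2 (r = 0.05) did not run with it either, and Lamp5 (r = -0.47) and Sema3e (r = -0.80) leaned the other way. The summed level of the 8 striatum genes was 180 to 236 CPM in CIH and 149 to 190 CPM in control, that of the 9 cortical genes was 393 to 671 CPM in CIH and 388 to 455 CPM in control, and no gene of either list was at 0 in any library. In bulk tissue, more cells of a type and more RNA per cell cannot be told apart. With the cortical layer score as a covariate the log2 fold change of Npas2 was -0.18 (SE 0.15), and with the dentate granule score it was -0.33 (SE 0.25).

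**Figure D3:**
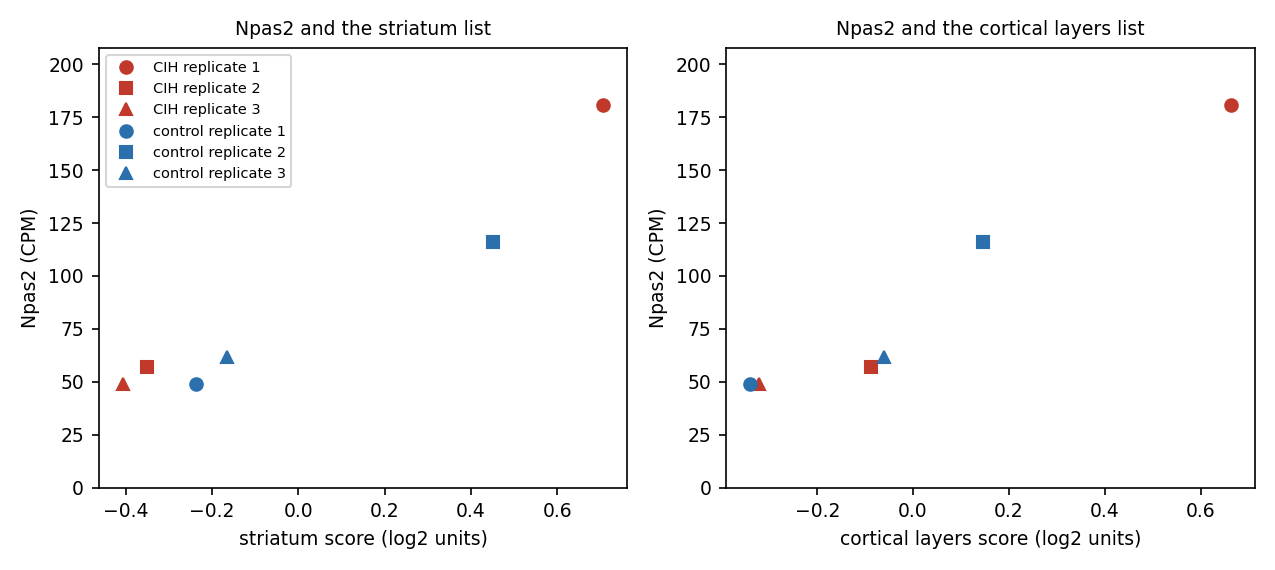
Npas2 in CPM (vertical axes) against the striatum score and the cortical layer score (horizontal axes, log2 units), 1 point per library. CIH replicate 1 at 181 CPM and control replicate 2 at 116 CPM lie at the upper right of both plots, apart from the other 4 libraries at 48.8 to 61.7 CPM.

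By the fixed likeness rule, the genes most like Npas2 over the 6 libraries were Galntl6, Igsf21 and Gab2 (r = 0.996, 0.996 and 0.994). Igsf21, a synaptic adhesion gene, stood at 34.3, 18.2 and 15.8 CPM in CIH and 15.3, 26.0 and 17.7 CPM in control. With 6 libraries such values are common: 137 of 10389 candidate genes had an r above 0.95 with Npas2.

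The Per genes encode the limiting repressors of the loop, and Per1 and Per2 are also acute response genes. Per1 stood at 162, 132 and 125 CPM in CIH and 133, 126 and 137 CPM in control, with CIH replicate 1 apart from the other 5 libraries. Its log2 fold change was 0.08 (SE 0.13), with a 95% interval of -0.22 to 0.38, and it was -0.04 without CIH replicate 1. Per2 stood at 108, 103 and 87.0 CPM in CIH and 97.2, 81.4 and 92.7 CPM in control. The highest values of Per2 were CIH replicates 1 and 2, and CIH replicate 3 lay below 2 controls. For Per2 the log2 fold change was 0.14 (SE 0.12), with a 95% interval of -0.16 to 0.43, and it ran from 0.06 without control replicate 2 (0.07 without CIH replicate 1) to 0.22 without CIH replicate 3.

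Per1 and Per2 ran with a list of 10 immediate early genes, which neurons switch on within minutes of activity. The immediate early score was 0.24, 0.01 and -0.15 in CIH replicates 1, 2 and 3, against 0.10, -0.37 and 0.16 in control replicates 1, 2 and 3. CIH replicate 1 was highest in this score and in both Per genes. Only 1 of the 10 immediate early genes, Fos, was highest in that library. The summed level of the list there was 450 CPM, the lowest of the CIH libraries, against 316 to 566 CPM in control. The r of the score was 0.78 with Per1 (rho 0.94) and 0.84 with Per2 (rho 0.77) over the 6 libraries, and 0.91 and 0.77 without CIH replicate 1. Without the 2 libraries farthest from the median score the r was 0.85 for Per1 and 0.15 for Per2, so the relation of Per2 rests on those 2 libraries. Other lists ran with these genes too. Per2 had an r of 0.66 with the astrocyte score (rho 0.83), 0.91 without CIH replicate 1 and 0.99 without its 2 farthest libraries. Per1 had an r of 0.89 with the endothelium and pericyte score (rho 0.09), but -0.22 without CIH replicate 1. The part of any list in the Per levels was not tested. Of the 10 immediate early genes 5 were higher and 5 lower in CIH, with a median log2 fold change of -0.01, and none passed the test. The 3 with the smallest p were the transcription factor genes Egr2 at -0.12 (SE 0.14), Npas4 at 0.23 (SE 0.30) and Fos at 0.34 (SE 0.52).

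A list of 10 glucocorticoid response genes, which share an upstream hormone with Per1, had 4 members higher and 6 lower in CIH, a median log2 fold change of -0.04 and none past the test. Mt1, a metallothionein gene, stood at 5.21, 6.78 and 5.51 CPM in CIH and 9.24, 7.93 and 7.69 CPM in control. The groups of Mt1 did not overlap, as in 2.65% of all genes with CIH lower, but its log2 fold change of -0.50 (SE 0.17) did not pass the edgeR test (adjusted p = 1.00). The co-chaperone gene Fkbp5 stood at -0.26 (SE 0.24) and the leucine zipper gene Tsc22d3 at -0.12 (SE 0.12).

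Per3, the member least needed for daily rhythm in mice, fell into a high and a low set of libraries that cut across the groups. It stood at 77.6, 55.3 and 77.2 CPM in CIH replicates 1, 2 and 3, against 76.4, 54.0 and 45.8 CPM in control replicates 1, 2 and 3. CIH replicates 1 and 3 and control replicate 1 were high, and the other 3 libraries were low. For Per3 the log2 fold change was 0.25 (SE 0.22), with a 95% interval of -0.28 to 0.78 (adjusted p = 1.00, edgeR). Without control replicate 1 it was 0.49 (SE 0.19, unadjusted p = 0.0406, adjusted p = 0.903), the smallest unadjusted p of any member under any alternative, in a setting where 1007 of 18349 genes had an unadjusted p under 0.05. It was 0.40 without CIH replicate 2, and it was lower at 0.17 without CIH replicate 1 or CIH replicate 3 and 0.10 without control replicate 3. Over all 15 alternatives the adjusted p of Per3 ran from 0.903 to 1.00.

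The oligodendrocyte and myelin score also separated CIH replicate 3 and control replicate 1, at 0.61 and 0.55, from control replicates 2 and 3, at -0.61 and -0.56. CIH replicates 1 and 2 lay between them at -0.08 and 0.09. The r of this score with Per3 was 0.79 over the 6 libraries (rho 0.60), 0.92 without CIH replicate 1, and 0.73 without the 2 libraries farthest from the median score. The r was of like size for Arntl at -0.86 (rho -0.94) and Cry2 at 0.79 (rho 0.77), and it was -0.65 and 0.96 for them without those 2 libraries. Mbp, the myelin basic protein gene, stood at 2412, 2393 and 3488 CPM in CIH and 3408, 1378 and 1286 CPM in control (r = 0.87 with Per3). All 9 myelin genes had a log2 fold change above 0, beside 50.6% of all genes, and none passed the test. Their summed level was 4951 to 7625 CPM in CIH and 3107 to 7544 CPM in control. Over the 6 libraries the r of Per3 was larger with the other clock loop and output genes described below, at 0.87 (rho 1.00). The part of myelinated tissue in the level of Per3 was not tested.

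The interneuron list lay in the opposite direction to Per3 (r = -0.81, rho -0.83) and to Cry1 (r = -0.81, rho -0.54). It also lay opposite to Rora (r = -0.70, rho -0.83) and to Rorb (r = -0.70, rho -0.60). Without the 2 libraries farthest from the median score the r was -0.18 for Per3, which rests on them. It was -0.83 for Cry1, -0.92 for Rora and -0.96 for Rorb, with CIH replicate 1 still among the libraries kept. Without CIH replicate 1 the r was -0.76 for Per3, -0.68 for Cry1, -0.73 for Rora and -0.51 for Rorb. Its 8 genes, which include the GABA synthesis genes Gad1 and Gad2, summed to 424 to 456 CPM in CIH and 463 to 558 CPM in control. The groups did not overlap in this sum, and none of the genes was at 0. Taken singly, 0 of the 8 genes had CIH lower without overlap, beside 2.65% of all genes, and 1 had CIH higher, beside 3.05%. No such share was formed for sums of lists. Of the 8 genes 7 had a log2 fold change below 0, with a median of -0.29, and none passed the edgeR test. Over all genes 50.6% were above 0. An unadjusted p under 0.05 in that test was found for 2 of the 8 interneuron genes, beside 1.78% of all genes. These were Slc32a1, the vesicular GABA transporter gene, at -0.38 (SE 0.15) and Pvalb, a calcium-binding protein gene, at 0.42 (SE 0.15). Pvalb was the 1 gene above 0. The part of interneurons in the levels of these members was not tested.

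**Figure D4:**
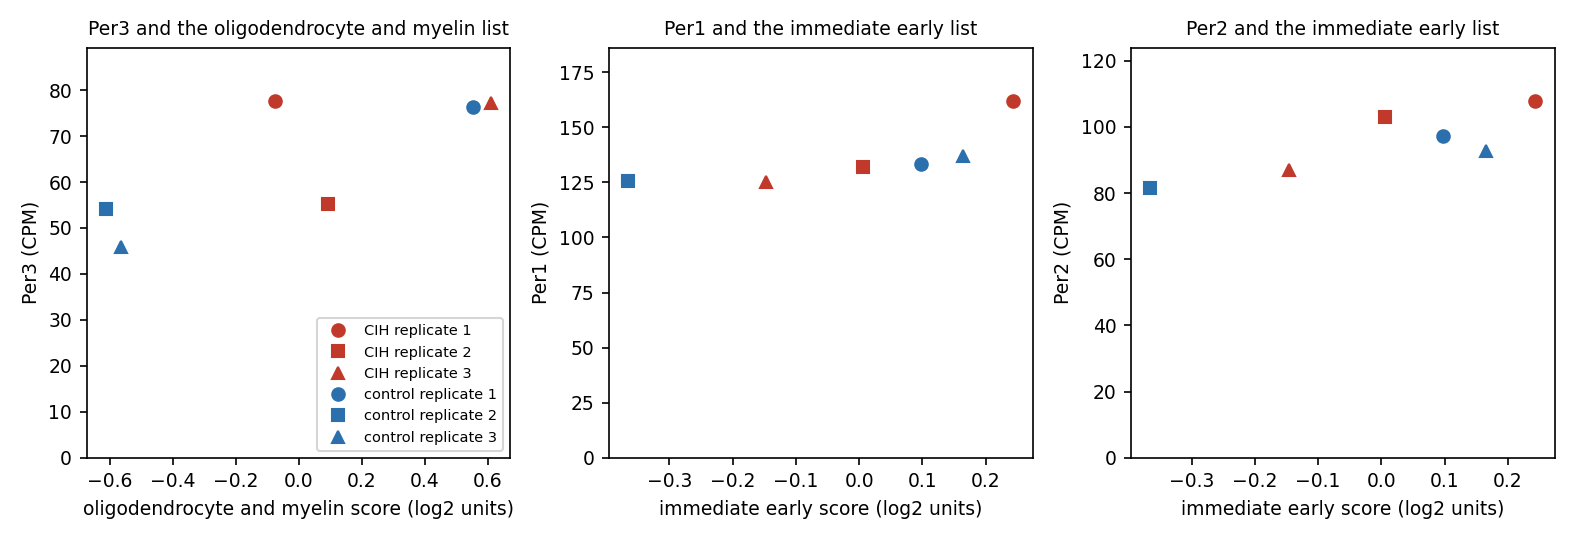
Per3 against the oligodendrocyte and myelin score, and Per1 and Per2 against the immediate early score (CPM on the vertical axes, scores in log2 units on the horizontal axes), 1 point per library. Per3 is high at 76.4 to 77.6 CPM in 3 libraries, of which CIH replicate 1 has a myelin score of only -0.08. Per1 and Per2 are highest in CIH replicate 1, where the immediate early score is also highest, though only 1 of its 10 genes is.

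Within a library, the ratio of a repressor to an activator that peaks in the opposite phase does not depend on depth. Per2 TPM over Arntl TPM was 2.70, 2.95 and 2.60 in CIH replicates 1, 2 and 3, against 2.64, 1.88 and 2.30 in control replicates 1, 2 and 3. The groups overlapped only through control replicate 1, which lay above CIH replicate 3. Per3 TPM over Arntl TPM was 3.66, 2.80 and 4.65 in CIH and 3.94, 2.43 and 2.33 in control, again with control replicate 1 among the CIH libraries. These ratios were formed in addition to the planned comparisons and were not tested.

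The Cry genes encode the strongest repressors of the ARNTL and CLOCK pair. Cry1 stood at 19.3, 16.1 and 15.8 CPM in CIH and 16.7, 16.5 and 13.7 CPM in control, with the highest library in CIH and the lowest in control. Its log2 fold change was 0.12 (SE 0.15), with a 95% interval of -0.22 to 0.47, and it was 0.02 without CIH replicate 1 and 0.04 without control replicate 3. Cry2 stood at 125, 132 and 130 CPM in CIH and 150, 123 and 120 CPM in control. The CIH libraries of Cry2 lay inside the range of the controls, and control replicate 1 stood above the other 5 libraries. For Cry2 the log2 fold change was -0.02 (SE 0.12), with a 95% interval of -0.30 to 0.26, and it was 0.09 without control replicate 1. Cry1 was the scarcer gene in each library: its TPM was 0.242, 0.185 and 0.176 of that of Cry2 in CIH and 0.174, 0.200 and 0.168 of it in control.

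Rora and Rorb encode receptors known to bind RORE motifs, and Rorb also marks neurons of the middle cortical layers. Rora stood at 128, 62.8 and 68.6 CPM in CIH replicates 1, 2 and 3, against 67.9, 62.6 and 60.6 CPM in control replicates 1, 2 and 3. CIH replicate 1 was far above the other 5 libraries, which lay close together. The log2 fold change of Rora was 0.44 (SE 0.27), the highest of the 10 members, with a 95% interval of -0.20 to 1.08 (adjusted p = 1.00, edgeR), and without CIH replicate 1 it was 0.04 (SE 0.11).

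Rorb stood at 151, 99.6 and 103 CPM in CIH and 99.2, 106 and 91.2 CPM in control, again with CIH replicate 1 apart and the other libraries overlapping. Its log2 fold change was 0.25 (SE 0.18), with a 95% interval of -0.17 to 0.67, and without CIH replicate 1 it was 0.03 (SE 0.11). The score of 11 endothelial and pericyte genes was likewise highest in CIH replicate 1, at 0.45, and between -0.13 and 0.00 in the other 5 libraries. Its r was 0.96 with Rora and 0.95 with Rorb over the 6 libraries, and -0.14 and 0.27 without CIH replicate 1, so both relations rest on that library. The summed level of these vessel genes was 332 to 460 CPM in CIH and 306 to 324 CPM in control. The groups did not overlap in this sum, as for the interneuron list, and no share over other sums was formed. Taken singly, 4 of the 11 genes had CIH higher without overlap, beside 3.05% of all genes. All 11 were highest in CIH replicate 1. All 11 had a log2 fold change above 0, beside 50.6% of all genes, none passed the test and none was at 0. The cortical layer score had an r of 0.79 with Rora and 0.85 with Rorb, and -0.82 and 0.12 without CIH replicate 1. For the CA2 and CA3 list the r was -0.83 and -0.89, and 0.06 and -0.51 without that library. With the cortical layer score as a covariate the log2 fold change was 0.23 (SE 0.19) for Rora and 0.14 (SE 0.12) for Rorb. The part of these tissues in the Ror levels was not tested.

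By the likeness rule the genes most like Rora were Sp1, Fat3 and Alms1 (r = 0.994 for each), and 91 of 10389 candidates had an r above 0.95. Fat3, a giant protocadherin gene, stood at 300, 143 and 161 CPM in CIH and 157, 139 and 128 CPM in control. As with Rora, CIH replicate 1 was alone at the top.

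The unit changed the picture for Rorb. In TPM, Rorb stood at 67.7, 49.1 and 45.7 in CIH replicates 1, 2 and 3, against 44.0, 41.9 and 35.8 in control replicates 1, 2 and 3. Here all 3 CIH libraries lay above all 3 controls, as they did in 3% of all tested genes. On the log2(TPM + 1) scale limma gave Rorb a difference of 0.39 (adjusted p = 1.00, unadjusted p = 0.0706), against 0.23 (unadjusted p = 0.278) by limma on the log2 CPM of the counts. Rora stood at 72.5, 53.8 and 46.9 TPM in CIH and 50.4, 52.0 and 37.9 TPM in control, and its difference was 0.29 on the log2(TPM + 1) scale against 0.37 on log2 CPM.

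The counts and the TPM part where the length assigned to a gene differs between libraries. The length implied by the count, the FPKM and the library total follows the mix of transcripts to which the authors' software gave the reads. For Rorb it was 4168, 3688 and 4228 bases in CIH and 4165, 4683 and 4813 bases in control. Control replicates 2 and 3 had longer implied lengths of Rorb than all 3 CIH libraries, and control replicate 1 lay among the CIH libraries. For Rora it was 3307, 2123 and 2745 bases in CIH and 2486, 2224 and 3018 bases in control, with no order between the groups. The longest was 1.56 times the shortest for Rora and 1.31 times for Rorb, while the other members ranged from 1.01 times for Per2 to 1.16 times for Per3 and Cry1. The median over 10108 genes with at least 5 FPKM in every library was 1.06 times, and Rora exceeded 97.8% of them and Rorb 91.4%. Which transcripts these were was not analysed here.

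**Figure D5:**
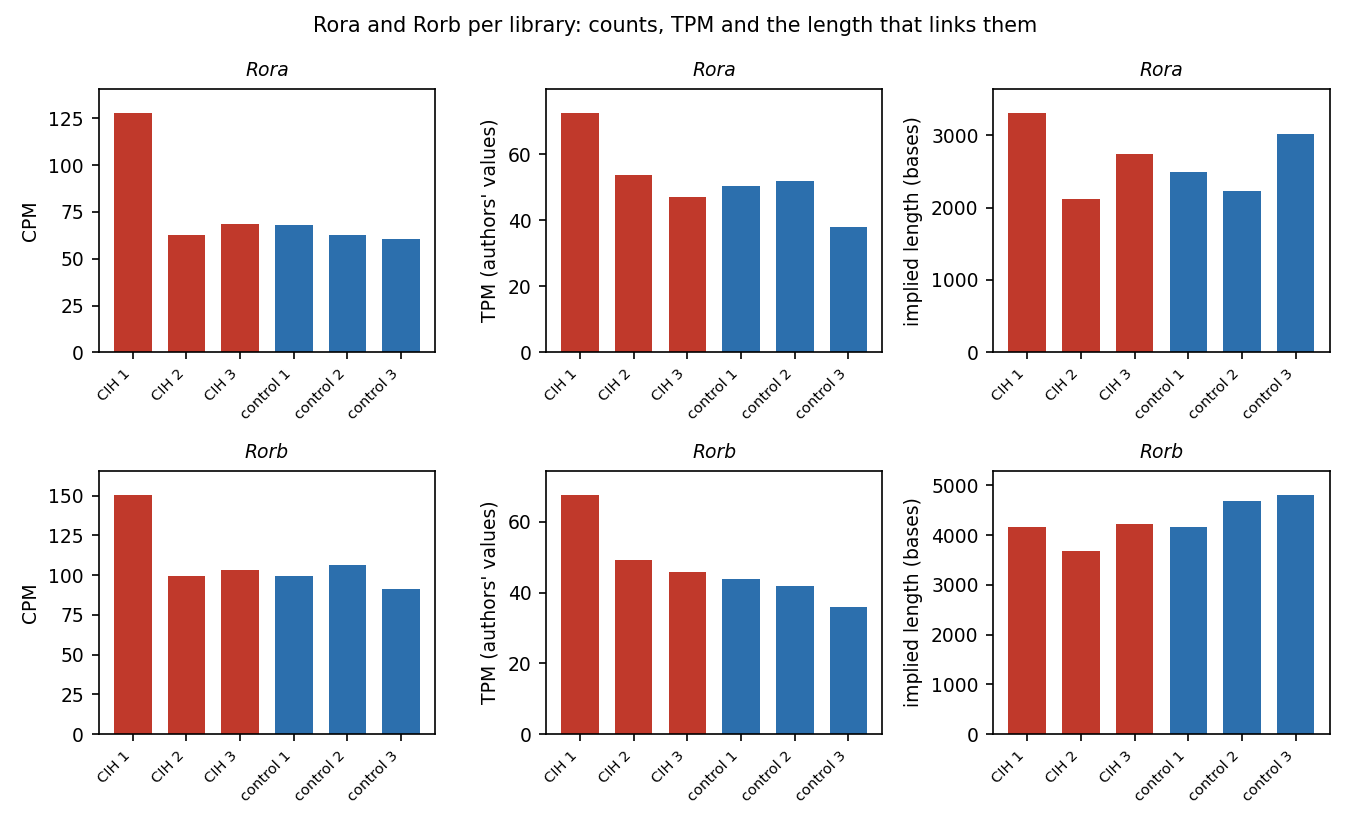
Rora (top row) and Rorb (bottom row) in each library as CPM, as TPM and as the implied length in bases (bars, all starting at 0; CIH in red left of control in blue). CIH replicate 1 is highest in CPM for both genes, and control replicates 2 and 3 have the longest implied lengths of Rorb.

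Of the other genes of the clock, 9 of 11 loop and output genes were tested, the others being too low. All 9 had a log2 fold change above 0, beside 50.6% of all genes, with a median of 0.31. The median was 0.15 without CIH replicate 1, and 0.15 over the list with no low-count filter. None passed the edgeR test. The groups did not overlap in 3 of them, the repressor Ciart, the output gene Dbp and the REV-ERB gene Nr1d1, beside 3.05% of all genes with CIH higher. Ciart stood at 11.8, 8.54 and 11.9 CPM in CIH and 7.15, 4.29 and 5.05 CPM in control. The score of this list ran with Per3 (r = 0.87, rho 1.00) and Rora (r = 0.83, rho 1.00) over the 6 libraries. Arntl lay the other way (r = -0.40). For Per3 and Rora the r was 0.90 and 0.91 without CIH replicate 1. It was 0.83 and 0.85 without the 2 libraries farthest from the median score. The listed genes have the members as regulators and were known from earlier results of these data to lean towards CIH, so they are no independent support.

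Kinases, ubiquitin ligases and partners of the clock set the stability of PER and CRY proteins. Of these 14 genes 6 were higher and 8 lower in CIH, with a median log2 fold change of -0.01, and none passed the test or had an unadjusted p under 0.05. The smallest p values belonged to Nono, an RNA-binding partner of PER, at -0.13 (SE 0.09), the kinase gene Gsk3a at 0.10 (SE 0.10) and Timeless, with a mean of only 1.37 CPM, at -0.32 (SE 0.33).

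The labelled tissue was checked on markers fixed as lists. Dentate granule genes summed to 168 to 815 CPM in CIH and 333 to 940 CPM in control, and CA1 genes to 917 to 1221 CPM in CIH and 593 to 1266 CPM in control, so hippocampal markers were present in every library. The thalamus genes summed to 52.0 to 91.2 CPM in CIH and 59.2 to 79.8 CPM in control, and the choroid plexus genes to 3.25 to 19.5 CPM in CIH and 6.95 to 20.4 CPM in control. The dentate score ran from -1.49 in CIH replicate 1 to 1.14 in control replicate 1, a wider span than that of any other list. For Npas2 the r with it was -0.89 (rho -0.94), -0.71 without CIH replicate 1 and -0.67 without the 2 libraries farthest from the median score. With it as a covariate, Arntl had a log2 fold change of -0.24 (SE 0.12, adjusted p = 0.954), Per3 of 0.34 (SE 0.24), Rora of 0.21 (SE 0.24) and Rorb of 0.12 (SE 0.15), and none of the 10 passed.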

How the data were processed

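The submitters' processing notes name Bowtie2 2.2.5, RSEM 1.2.12, HISAT2 2.2.0 and build Rnor_6.0, without saying what each did. Annotation and strand use: not given in the sources used here, which matters because some members overlap other loci. On the GRCr8 assembly 7 of the 10 members overlap another RefSeq locus by position, so their reads may include those of that locus. The deposited estimated counts, not whole in 16.0% of values, were rounded; the quasi-likelihood F test of edgeR 4.0.16 (R 4.3.3; TMM factors, filterByExpr) was fitted to 17935 genes, and p-values were adjusted by Benjamini-Hochberg over all of them, with 0.05 as threshold. SE and 95% intervals come from the fold change, the F statistic and its degrees of freedom. TPM, made by the authors, compared levels between genes and served limma 3.58.1 with a pseudocount of 1 or 0.1. The authors' FPKM served only for implied lengths (the estimated count per library total, divided by FPKM and scaled to bases).

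Samples were grouped by title. The members and lists were chosen with earlier results of these data known. The likeness rule took, for members ranging over more than 1 log2 CPM unit (prior count 2), the 3 genes with the highest r among named genes with mean log2 CPM above 3. For clock and response lists the 3 genes with the smallest p were named; for tissue lists any of the 3 most abundant, and Drd1 and others beside them were chosen after their values were seen. In simulated counts over 17652 genes, 26.8% of 97 genes with a change of 1 log2 unit and 89.5% of 95 with a change of 2 were called, beside 8 false calls. The small RNA table was not used. Alternatives were RLE factors, no filter, DESeq2 1.42.0, limma on TPM, a replicate block, a cortical or dentate score as covariate, leaving out each library and, added after seeing the data, limma on log2 CPM. Figures used matplotlib 3.10.9 in Python 3.11.15.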

Additional observations from a re-analysis of the deposited data

How the results depend on the processing

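No member and no gene of the other clock lists was called under any of the 15 alternatives. Over the whole table, where edgeR called 0 genes, DESeq2 called 9, each limma setting (TPM with a pseudocount of 1 or 0.1, and log2 CPM) called 1, and leaving out 1 library gave 0 to 1. Arntl, Per2, Per3, Cry1, Rora and Rorb kept their direction in all 15. Npas2 turned to -0.182 with the cortical layer score as a covariate and -0.329 with the dentate score, and ran from -0.512 to 0.788 over the left-out libraries. Cry2 turned to 0.0135 and 0.0394 with those covariates and ran from -0.0769 to 0.0904 (without control replicate 1). Clock ran from -0.0186 (without CIH replicate 3; it was also below 0 without CIH replicate 1) to 0.124 and Per1 from -0.0427 (without CIH replicate 1) to 0.151 over the left-out libraries. Rora ran from 0.04 to 0.62 and Rorb from 0.03 to 0.36, each lowest without CIH replicate 1. The median of the clock kinases and ligases was 0.0353 and 0.0354 under limma on TPM with a pseudocount of 1 and 0.1, and ran from -0.0666 to 0.0164 over the left-out libraries. The cause of these changes was not tested.

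Same-numbered deviations from the group means correlated at -0.222, -0.0457 and -0.176, which gave no sign that replicate numbers pair the libraries. Differently numbered libraries were not compared, so these values cannot show that the libraries were unpaired. With the replicate block 0 genes and 0 members were called. With 3 libraries per group, 26 of 97 genes given a change of 1 log2 unit in simulated counts were called, and smaller changes were not simulated.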
